A study of Mus musculus with 6 samples.

Results

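The 10 formative and primed state factors described here are genes known to rise when mouse embryonic stem cells (ESCs) leave the naive state. They are the FGF ligands *Fgf5* and *Fgf15*, the transcription factors *Otx2*, *Pou3f1*, *Foxd3*, *Lef1*, *Sox3*, *Zic2* and *Zic5*, and the adhesion gene *Cdh2*. They were chosen by name, with earlier results of these data known, and found by Ensembl identifier among 37620 genes. Of the 10, 9 were among the 16023 genes that passed the filter on low counts, and *Pou3f1* was not. PolyA RNA of E14 ESCs (strain 129/Ola), grown in 15% FBS, was sequenced in 3 wild-type libraries and 3 S138A libraries. In S138A cells the ubiquitin-conjugating enzyme UBE2D3 carries an alanine in place of a serine near its C-terminal end. Both genotypes share the line and the serum, and no label names a differentiation treatment. The study made the mutation by gene editing and did its functional work on a single mutant clone, and the labels do not say which clone gave this RNA or whether the libraries come from separate cultures. Adjusted p-values therefore measure the spread between these libraries, which may be technical.

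As background, naive ESCs resemble the epiblast before implantation, and the formative and primed states correspond to the epiblast around and after it. FGF signalling through ERK drives the exit from the naive state, OTX2 and POU3F1 direct enhancers of the formative programme, and FGF5 is the usual marker of the epiblast after implantation. ESCs in serum are a mixed population in which some cells carry such transcripts while most keep naive factors. In bulk RNA, fewer cells with a transcript and less transcript per cell cannot be told apart.

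The libraries held 33227593 to 37169770 counts. All values below are CPM, that is counts divided by the library total and scaled by TMM factors, and log2 differences are on the log2 CPM scale. The deposited columns of the S138A libraries are named S51, S52 and S53 and were given to the genotype as a group. The first principal component (55.9% of the variance) set wild-type 3 and S53 apart from the other 4 libraries, and the second (25.2%) separated the genotypes. The noise ratios that follow are an exception, as they use counts divided by library totals alone. TMM factors, from 0.938 in wild-type 1 to 1.09 in S53, were not applied, so differences in scaling enter these ratios. The median squared difference between libraries was 2.20 times the sampling noise for wild-type 1 and 2 and 3.05 times for S51 and S52. Against those libraries it was 24.2 and 22.5 times for wild-type 3, and 35.8 and 38.1 times for S53. Between wild-type 3 and S53 it was 18.5 times. Between genotypes among the other 4 libraries it was 9.50 to 13.7 times, lower than between wild-type 3 and S53 by this unscaled measure. The labels name wild-type 3 as replicate 3, and the column name S53 ends in the same digit, but no label says what a number stands for. Differences that rest on these libraries are given by library, without a test, and the genotypes are compared with and without them. All 6 ESC markers fixed for the check of cell identity (*Pou5f1*, *Nanog*, *Sox2*, *Zfp42*, *Esrrb*, *Sall4*) were abundant. Their summed level was 4267 to 4473 CPM in wild-type and 3757 to 4429 CPM in S138A libraries. The sum hides opposite shifts. Wild-type 3 and S53 were both below the other 4 libraries for 2 markers, *Pou5f1* and *Sall4*, and both above for 3, *Nanog*, *Sox2* and *Esrrb* (24.4% and 24.6% of all genes). *Pou5f1* had 1363, 1429 and 1018 CPM in wild-type and 1416, 1427 and 954 CPM in S138A libraries. *Ube2d3* itself had 473, 459 and 304 CPM in wild-type and 491, 429 and 265 CPM in S138A libraries. A base change does not remove the transcript, so these counts do not check the genotype.

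Per kilobase of the longest annotated transcript, mean levels of the members with counts ran from 14.8 down to 0.496 CPM per kb in wild-type ESCs. *Foxd3* stood at 14.8 ± 5.81 CPM per kb and *Otx2* at 14.2 ± 4.15 (SD, n = 3 libraries, as for all values in this paragraph). *Zic2* followed at 9.90 ± 0.707 and *Zic5* at 9.38 ± 0.965 CPM per kb. Among the 3 wild-type libraries, *Foxd3* was above *Otx2* in 2 and *Zic2* above *Zic5* in 2, so neither order exceeded the spread. *Otx2* was above *Zic2* in 3 of 3 wild-type libraries. In S51, S52 and S53 it was below *Zic2*, at 12.8, 12.6 and 5.68 against 14.4, 14.0 and 11.9 CPM per kb. *Fgf15* at 5.31 ± 1.77 CPM per kb lay below *Zic5* and above *Lef1* in 6 of 6 libraries. *Lef1* stood at 2.74 ± 1.92, *Cdh2* at 1.76 ± 0.476 and *Sox3* at 1.61 ± 0.493 CPM per kb. *Lef1* was above *Cdh2* in 2 of 3 wild-type libraries. *Cdh2* was above *Sox3* in 3 of 3 wild-type libraries, by a mean gap of only 0.148 CPM per kb. In S51, S52 and S53 it was below *Sox3*, at 1.48, 1.43 and 0.523 against 3.34, 3.57 and 1.59 CPM per kb. *Fgf5* was the lowest member with counts, at 0.496 ± 0.289 CPM per kb, below *Sox3* in 6 of 6 libraries. With the mean length over annotated transcripts instead, *Otx2* ranked 1 and *Foxd3* ranked 4.

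**Figure D1:**
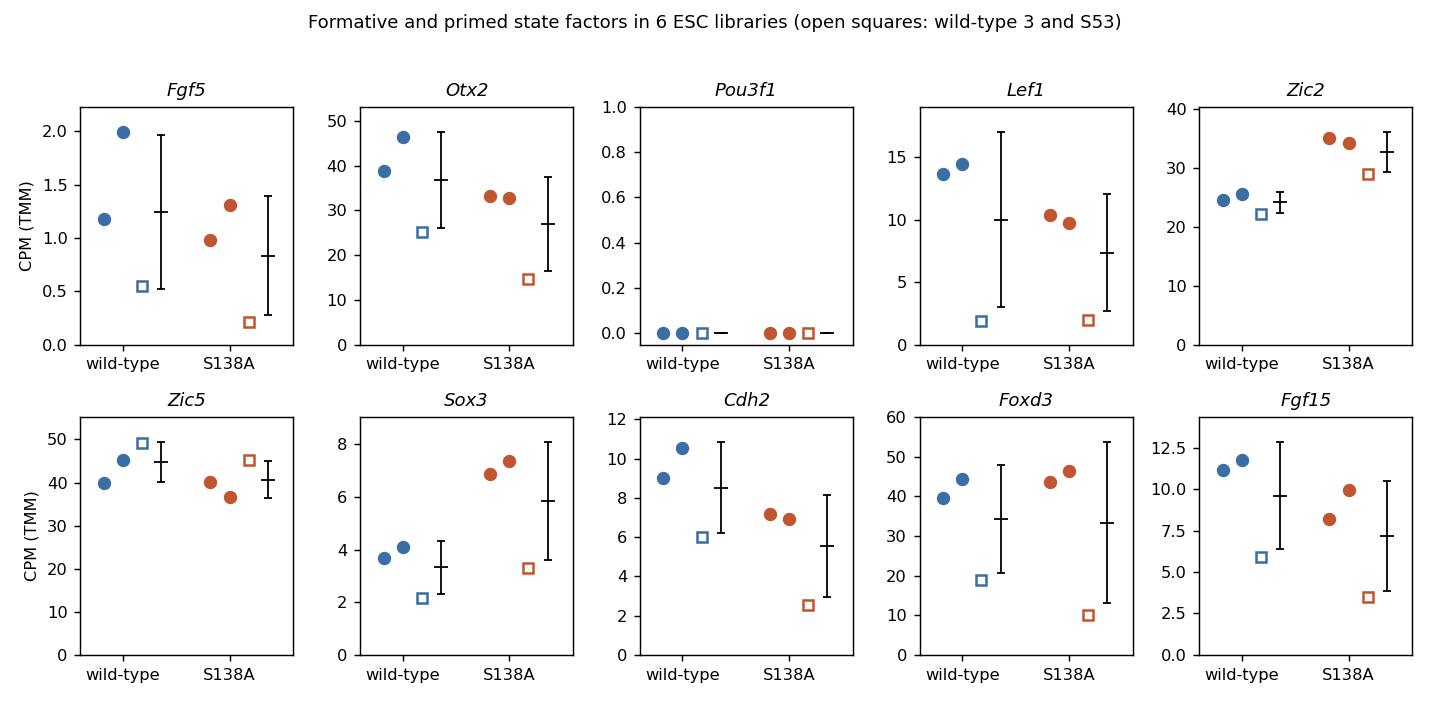
CPM (TMM) of each of the 10 members by genotype, with 1 point per library (filled circles are libraries 1 and 2 of each genotype, open squares wild-type 3 and S53) and the mean with SD of 3 libraries beside them. The open squares are the lowest of their genotype for 8 members, *Zic5* is the exception, and *Pou3f1* is at 0 in all 6 libraries.

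Promoter sequence from RefSeq (GRCm38.p6) was at hand for 5 of the 10 members. The 250 bases before each start are shown because 4 of these genes (*Fgf5*, *Lef1*, *Foxd3* and *Otx2*) were lower together in wild-type 3 and S53, while *Zic5* was not. They are written 5′ to 3′ on the gene's strand, and capitals mark a match to the SOX core. The windows are chr5:98253934-98254183 (+) for *Fgf5*, chr3:131110047-131110296 (+) for *Lef1*, chr4:99656049-99656298 (+) for *Foxd3*, chr14:48667645-48667894 (-) for *Otx2* and chr14:122465659-122465908 (-) for *Zic5*.
Fgf5: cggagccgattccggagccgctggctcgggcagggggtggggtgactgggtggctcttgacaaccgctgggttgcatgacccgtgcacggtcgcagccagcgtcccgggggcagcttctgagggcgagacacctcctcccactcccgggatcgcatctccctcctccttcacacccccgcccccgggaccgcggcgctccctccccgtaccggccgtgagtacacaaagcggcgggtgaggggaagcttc
Lef1: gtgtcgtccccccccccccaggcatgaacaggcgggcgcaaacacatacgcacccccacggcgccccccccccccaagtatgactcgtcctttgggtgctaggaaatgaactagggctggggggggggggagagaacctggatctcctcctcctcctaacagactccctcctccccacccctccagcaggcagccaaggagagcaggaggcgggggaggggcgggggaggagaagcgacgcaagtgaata
Foxd3: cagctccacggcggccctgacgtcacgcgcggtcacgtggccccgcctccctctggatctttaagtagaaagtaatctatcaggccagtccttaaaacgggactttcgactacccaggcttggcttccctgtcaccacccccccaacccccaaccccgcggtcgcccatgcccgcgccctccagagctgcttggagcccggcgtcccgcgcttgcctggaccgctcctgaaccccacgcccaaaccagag
Otx2: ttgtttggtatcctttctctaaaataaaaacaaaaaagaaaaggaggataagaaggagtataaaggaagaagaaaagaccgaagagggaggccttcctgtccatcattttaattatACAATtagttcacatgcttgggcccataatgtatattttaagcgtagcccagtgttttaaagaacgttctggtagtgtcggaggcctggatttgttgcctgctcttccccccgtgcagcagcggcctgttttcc
Zic5: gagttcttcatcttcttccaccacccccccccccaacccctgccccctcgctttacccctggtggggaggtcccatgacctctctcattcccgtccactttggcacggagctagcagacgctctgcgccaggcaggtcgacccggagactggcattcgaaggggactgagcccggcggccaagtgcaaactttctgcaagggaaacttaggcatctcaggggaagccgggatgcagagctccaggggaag
GC content was 70.8% for *Fgf5*, 66.4% for *Lef1*, 65.6% for *Foxd3* and 62.4% for *Zic5*, but 42% for *Otx2*. Of 32851 promoter windows of this length, 15.9% had a lower GC content than *Otx2*. CG pairs numbered 24 in *Fgf5*, 21 in *Foxd3*, 11 in *Lef1* and in *Zic5* and 6 in *Otx2*. Both strands were searched for the OTX homeobox site TAATCC, the TCF/LEF core CTTTGA, the SOX core ACAAT and the POU octamer ATGCAAAT, which were present in 6.25%, 13.8%, 27.7% and 1.6% of all windows. The single match among the 5 members was the SOX core of *Otx2*. These are descriptions of letters in a short window, not of binding.

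Most members were lower in wild-type 3 and S53. Both libraries that stand apart had lower levels of *Fgf5*, *Otx2*, *Lef1*, *Sox3*, *Cdh2*, *Foxd3* and *Fgf15* than any of the other 4 libraries. These are 7 of the 9 members tested, against 24.4% of all genes tested, and 1 member, *Zic5*, lay above all 4, against 24.6%, by a narrow margin (45.3 CPM in S53 and 45.1 CPM in wild-type 2). Compared with the other libraries of their own genotype alone, 8 of 9 members were lower in both (33.8% of all genes) and 1 was higher in both (34% of all genes). The members, and the gene lists below, were chosen with earlier results of these data known. The shares of all genes are therefore a background and not a test. The median log2 difference over the 9 members was -0.84 in wild-type 3 and -1.36 in S53, where that over all genes tested was 0.00 in each. The difference was larger in size in S53 than in wild-type 3 for every member but *Lef1*. Over all genes, S53 also lay farther from its genotype by the noise ratios given above, which leave out the TMM factors.

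**Figure D2:**
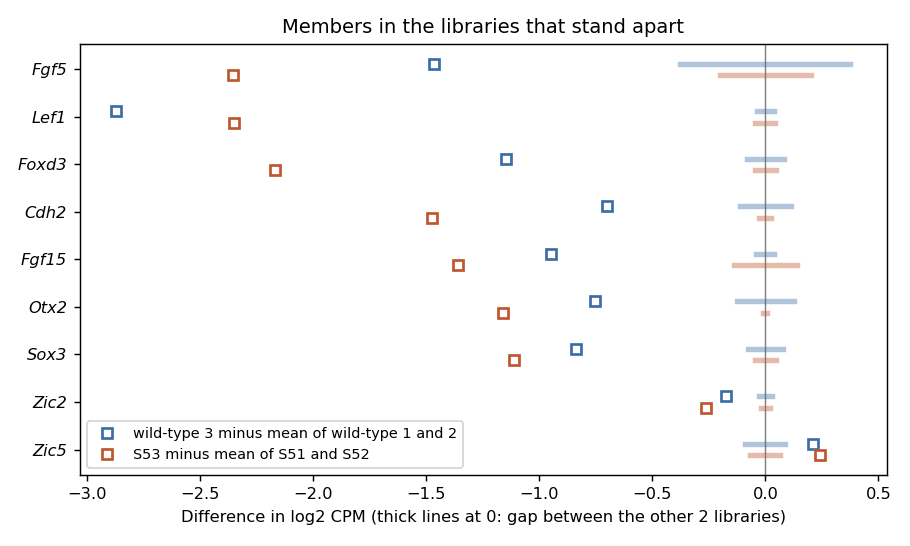
Log2 CPM difference of wild-type 3 from the mean of wild-type 1 and 2 (blue) and of S53 from the mean of S51 and S52 (orange) for the 9 members tested, with thick lines at 0 as long as the gap between the other libraries of that genotype. *Lef1* lies at -2.87 and -2.35, *Fgf5* at -1.47 and -2.36, and *Zic5* alone lies above 0, at 0.21 and 0.24.

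Of the FGF ligands, *Fgf5* (ENSMUSG00000029337, chromosome 5) was scarce. Its counts were 39, 63 and 21 in wild-type and 34, 48 and 8 in S51, S52 and S53. These are 1.18, 1.99 and 0.550 CPM in wild-type and 0.985, 1.30 and 0.216 CPM in S138A ESCs. Wild-type 3 and S53 were the lowest, 2.76-fold and 5.12-fold below the mean log2 level of the other 2 libraries of their genotype (folds of these libraries are given in this way throughout), and the genotypes overlapped. The 95% Poisson interval, which covers counting error only, ran from 0.341 to 0.841 CPM in wild-type 3 and from 0.839 to 1.61 CPM in wild-type 1, so these scarcely overlapped. In S53 it ran from 0.0931 to 0.425 CPM, below the interval of 0.682 to 1.38 CPM in S51.

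*Fgf15* (ENSMUSG00000031073, chromosome 7), an FGF of the endocrine class that is also made by the early embryo, had 11.1, 11.8 and 5.92 CPM in wild-type and 8.17, 9.92 and 3.51 CPM in S138A libraries. Again wild-type 3 and S53 were the lowest, by 1.93-fold and 2.57-fold. An antisense gene, *Gm26793*, holds 21.6% of the 50-base words of *Fgf15*, and the strand setting of the counting is not stated, so this value is uncertain to that extent.

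Among the transcription factors, *Otx2* (ENSMUSG00000021848, chromosome 14), a homeobox gene of the formative state and later of the forebrain, had 38.8, 46.3 and 25.1 CPM in wild-type libraries. Its S138A levels were 33.1, 32.7 and 14.7 CPM. Wild-type 3 was 1.69-fold and S53 2.24-fold below the other 2 libraries of its genotype, and S51 and S52 lay between wild-type 1 and wild-type 3. Exons of *Otx2* overlap the antisense gene *Otx2os1* and also *Gm49154*, which lies on its own strand. *Otx2os1* could not be told apart without the strand setting, and strand would not tell *Gm49154* apart. In the longest transcript of *Otx2*, 0% of the 50-base words occur in other genes.

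*Foxd3* (ENSMUSG00000067261, chromosome 4), a forkhead factor needed for the epiblast, had 39.6, 44.4 and 18.9 CPM in wild-type and 43.6, 46.4 and 10.0 CPM in S138A libraries. The other 4 libraries ranged from 39.6 to 46.4 CPM, with the genotypes mixed, while wild-type 3 was 2.21-fold and S53 4.49-fold lower. *Foxd3* and *Sox3* have a single exon each in the annotation. That of *Foxd3* is overlapped by *Gm23366* on the same strand, and 2.59% of its 50-base words occur in other genes.

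*Lef1* (ENSMUSG00000027985, chromosome 3), a nuclear partner of β-catenin in WNT signalling, had the largest difference of the members in wild-type 3. Its levels were 13.7, 14.4 and 1.91 CPM in wild-type and 10.4, 9.76 and 1.97 CPM in S138A libraries. The low libraries were almost equal, at 73 counts each, 7.32-fold and 5.10-fold below the others of their genotype. Of all genes tested, 1.10% had a lower difference in S53 than *Lef1*, and fewer had one in wild-type 3.

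*Sox3* (ENSMUSG00000045179, chromosome X), a SOXB1 factor of the epiblast and neural plate, had 3.69, 4.11 and 2.18 CPM in wild-type and 6.90, 7.37 and 3.29 CPM in S138A libraries. It was 1.79-fold lower in wild-type 3 and 2.16-fold lower in S53. S51 and S52 were above all wild-type libraries, and S53 was below wild-type 1 and 2.

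*Zic2* (ENSMUSG00000061524) and *Zic5* (ENSMUSG00000041703) encode zinc finger factors and lie next to each other on chromosome 14 on opposite strands, with no protein-coding gene between them. Of the 50-base words of *Zic5*, 7.67% occur in other genes, against 0% of those of *Zic2*. *Zic2* had 24.6, 25.6 and 22.3 CPM in wild-type and 35.1, 34.2 and 28.9 CPM in S138A libraries, so every S138A library exceeded every wild-type library. *Zic5* had 39.9, 45.1 and 49.1 CPM in wild-type and 40.1, 36.6 and 45.3 CPM in S138A libraries, and the genotypes overlapped. Neither gene showed the shift of the other members. *Zic2* was 1.13-fold lower in wild-type 3 and 1.20-fold lower in S53, and *Zic5* was 1.16-fold and 1.18-fold higher. The ratio of *Zic2* to *Zic5* counts was 0.616, 0.568 and 0.453 in wild-type libraries and 0.876, 0.935 and 0.638 in S138A libraries. The mean ratio was 0.546 ± 0.0834 for wild-type and 0.816 ± 0.157 for S138A libraries (SD, n = 3 each). The genotypes did not overlap in this ratio, but the margin was narrow (0.638 in S53 and 0.616 in wild-type 1). The two-sided exact permutation p was 0.1, the smallest that 3 against 3 libraries can give. No share of other gene pairs was computed as a background. *Zic2* levels alone also kept the genotypes apart, with S138A higher, as in 11.3% of all genes. The ratio is therefore not independent of the *Zic2* difference.

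**Figure D3:**
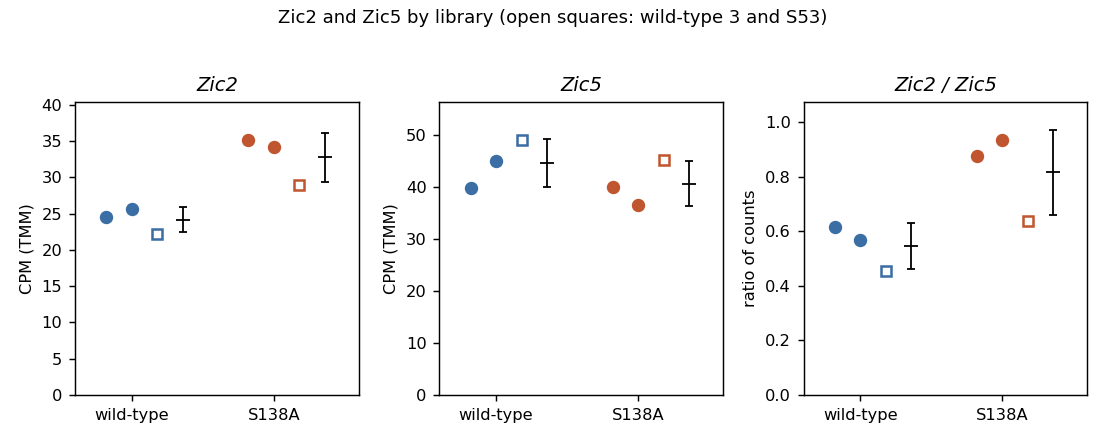
CPM (TMM) of *Zic2* and *Zic5* and the ratio of their counts in each library (open squares are wild-type 3 and S53), with mean and SD of 3 libraries. The S138A libraries lie at 28.9 to 35.1 CPM for *Zic2*, above the wild-type libraries at 22.3 to 25.6 CPM, while for *Zic5* the genotypes overlap.

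*Cdh2* (ENSMUSG00000024304), the gene of N-cadherin, which takes the place of E-cadherin as epiblast cells leave for the streak or neural plate, had 9.02, 10.5 and 6.00 CPM in wild-type libraries. Its S138A levels were 7.19, 6.93 and 2.53 CPM. Wild-type 3 was 1.62-fold and S53 2.78-fold below the other 2 libraries of its genotype, and wild-type 3 was also below S51 and S52.

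*Pou3f1* (ENSMUSG00000090125, chromosome 4), the POU factor OCT6, was listed at 0 counts in all 6 libraries. A count of 0 allows up to 3 counts, or 0.0786 to 0.0949 CPM by library, and covers counting error only. The annotation puts the gene in a single exon overlapped by the antisense gene *Gm2164*, which shares 7.42% of its 50-base words. How the counting treated such reads is not stated. No change of *Pou3f1* between genotypes was detectable.

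Setting S138A against wild-type ESCs compares these factors between the genotypes in serum culture. The study also made a revertant line, but none is among these libraries. An effect of the mutation therefore cannot be told apart from a difference between cell clones. By the quasi-likelihood test of edgeR, adjusted after Benjamini and Hochberg, 0 of the 9 members were called at an adjusted p under 0.05, and 0% of all 16023 genes were called (14.2% of genes, and *Zic2* among the members, had an unadjusted p under 0.05). For *Sox3* the log2 fold change was 0.82 ± 0.38 (SE; adjusted p = 0.398 by edgeR) and for *Zic2* 0.44 ± 0.13 (adjusted p = 0.225 by edgeR). *Cdh2* stood at -0.62 ± 0.42 (adjusted p = 0.554 by edgeR), *Fgf5* at -0.56 ± 0.69 (0.757), *Otx2* at -0.45 ± 0.35 (0.607), *Lef1* at -0.44 ± 0.82 (0.848) and *Fgf15* at -0.42 ± 0.43 (0.706). *Zic5* had -0.14 ± 0.13 (adjusted p = 0.679 by edgeR) and *Foxd3* -0.04 ± 0.57 (0.985). Only *Zic2* had genotypes that did not overlap, with all S138A libraries above, as in 11.3% of all genes (all below in 10.9%). Its two-sided exact permutation p was 0.1, the smallest possible.

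With the replicate number as a block, in which the final digit of the column name pairs the libraries, edgeR called 2 members higher (10.7% of all genes) and 3 lower (9.13% of all genes). *Zic2* rose by 0.44 ± 0.08 on the log2 scale (SE; adjusted p = 0.0144 by edgeR with the block) and was higher in 3 of 3 pairs, by 1.43, 1.34 and 1.30-fold. *Sox3* rose by 0.79 ± 0.15 (adjusted p = 0.0159 by edgeR with the block), also in 3 of 3 pairs, by 1.87, 1.79 and 1.51-fold. *Otx2* fell by 0.49 ± 0.11 (adjusted p = 0.0238 by edgeR with the block), with S138A to wild-type ratios of 0.853, 0.707 and 0.586. *Cdh2* fell by 0.70 ± 0.18 (adjusted p = 0.0364 by edgeR with the block), with ratios of 0.797, 0.658 and 0.422. *Fgf15* fell by 0.47 ± 0.14 (adjusted p = 0.0483 by edgeR with the block), with ratios of 0.734, 0.843 and 0.592. *Fgf5* was also lower in 3 of 3 pairs, with ratios of 0.835, 0.655 and 0.392, and did not pass (log2 fold change -0.63, adjusted p = 0.144 by edgeR with the block). *Lef1* (-0.36, adjusted p = 0.118), *Zic5* (-0.14, 0.282) and *Foxd3* (-0.21, 0.464) did not pass in that fit either. Without the block edgeR called none of them, as given above. S53 was paired with wild-type 3 in this fit, so the libraries that stand apart were compared with each other.

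**Figure D4:**
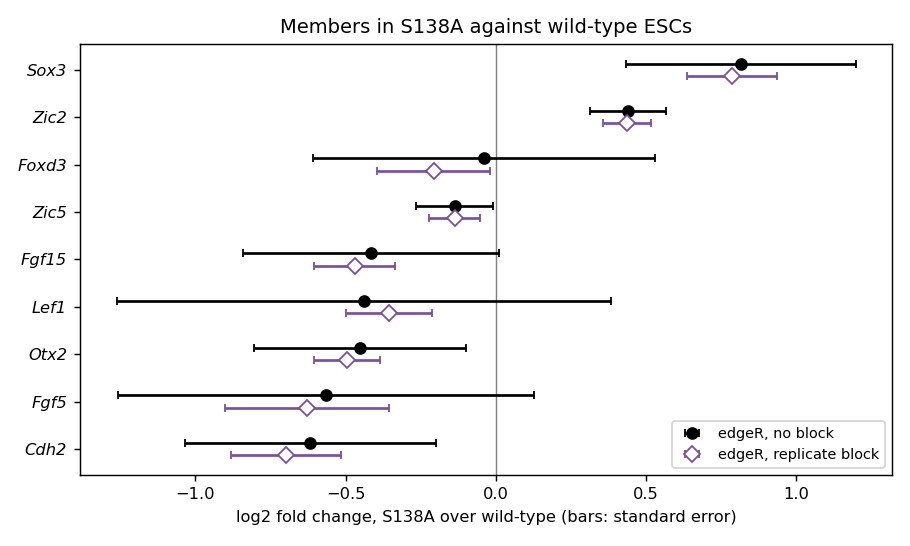
Log2 fold change of S138A over wild-type ESCs for the 9 members tested, from edgeR without a block (filled circles) and with the replicate block (open diamonds), with standard errors. *Cdh2* lies at -0.62 and -0.70 and *Foxd3* at -0.04 and -0.21, and the bars are shorter with the block, as for *Sox3* at 0.15 against 0.38.

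A term for wild-type 3 and S53 called the 5 members named by the block, 2 higher (14.6% of all genes) and 3 lower (13% of all genes). Without wild-type 3 and S53, the 4 remaining libraries called *Zic2* and *Sox3* higher (15.3% of all genes) and *Otx2*, *Cdh2* and *Lef1* lower (14.3% of all genes), and *Fgf15* was no longer called (adjusted p = 0.0606 by edgeR). DESeq2 called *Zic2* alone, as higher (adjusted p = 0.0433; 2.62% of all genes were called higher and 2.35% lower). Among the fits run, *Lef1* was called lower in the 4 libraries alone, at a log2 fold change of -0.48. Measured values chose wild-type 3 and S53. Adjusted p-values with the term, or without these libraries, do not account for that choice. The calls of those fits are therefore no independent check of the block.

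Other formative and primed genes moved in both directions. Of a list of 30, all of them tested, wild-type 3 and S53 were below the other 4 libraries for 13 and above for 4 (24.4% and 24.6% of all genes), with median log2 differences of -0.32 in wild-type 3 and -0.28 in S53. *Dnmt3l*, a cofactor of de novo DNA methylation, was among the 13, with 401, 406 and 183 CPM in wild-type and 389, 402 and 155 CPM in S138A libraries. *Etv1*, an ETS factor downstream of FGF, had 29.6, 27.2 and 9.91 CPM in wild-type and 24.7, 25.5 and 12.8 CPM in S138A libraries. Against this, *Tdgf1*, the NODAL coreceptor, was higher in both, with 650, 874 and 1239.5 CPM in wild-type and 870, 881 and 1362 CPM in S138A libraries. Between genotypes edgeR called 0 of the 30, and the block 5 higher and 6 lower (10.7% and 9.13% of all genes). By p-value the leading genes were *Lin28b*, an inhibitor of let-7 maturation (log2 fold change -0.46, adjusted p = 0.210 by edgeR), and *Enpp3* (-0.84, adjusted p = 0.220 by edgeR).

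**Figure D5:**
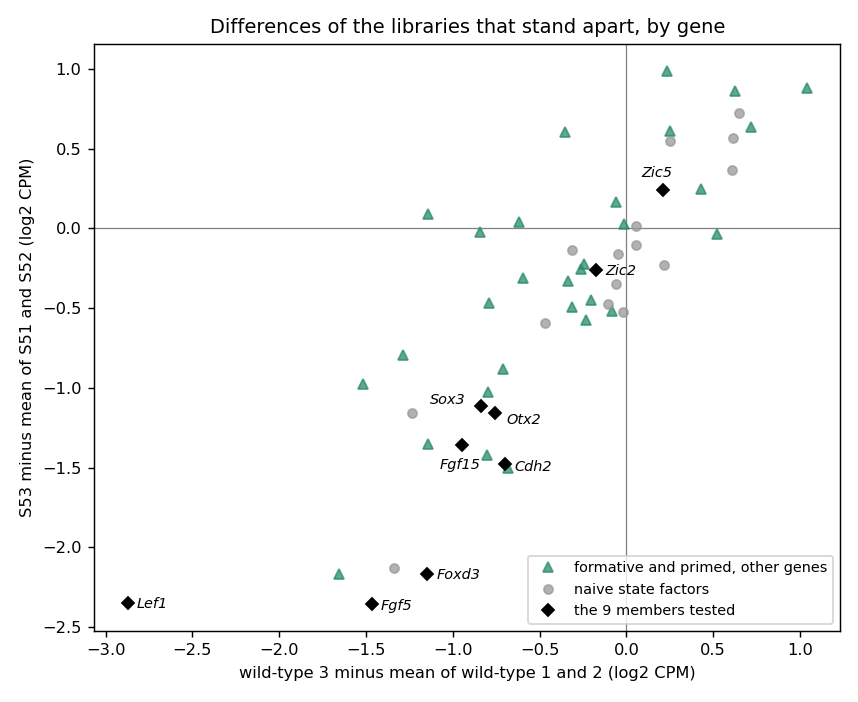
Log2 CPM difference of wild-type 3 (horizontal) against that of S53 (vertical), each from the other libraries of its genotype, for the 9 members tested (diamonds), 30 other formative and primed genes (triangles) and 15 naive state factors (circles). The members centre on -0.84 and -1.36, the naive factors on -0.02 and -0.16.

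Naive state factors, which hold ESCs in the ground state, lay near the share of all genes. Of 15 tested, 4 were below the other libraries in both wild-type 3 and S53 and 3 above (24.4% and 24.6% of all genes), with median log2 differences of -0.02 and -0.16. *Nanog* had 616, 614 and 937 CPM in wild-type and 603, 602 and 775 CPM in S138A libraries. *Nr0b1*, an orphan nuclear receptor, went with most of the members, at 140, 135 and 54.4 CPM in wild-type and 133, 147 and 31.9 CPM in S138A libraries. Between genotypes edgeR called 0 of the 15 and the block 3 higher and 3 lower (10.7% and 9.13% of all genes). *Dppa3*, a gene of naive ESCs and germ cells, came nearest to a call, at 19.5, 18.3 and 29.7 CPM in wild-type and 2.81, 2.31 and 4.21 CPM in S138A libraries (log2 fold change -2.85, adjusted p = 0.0789 by edgeR, 0.000231 with the block). *Tbx3*, a naive T-box factor, came next (0.77, adjusted p = 0.187 by edgeR, 0.00592 with the block).

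Genes of the FGF pathway itself, the ligands, receptors and ERK feedback inhibitors around *Fgf5* and *Fgf15*, were tested for 16 of 17. EdgeR called 0 of them, and the block called 6 higher and 0 lower (10.7% and 9.13% of all genes). *Fgfr1*, the main FGF receptor of ESCs, had 68.9, 70.9 and 77.1 CPM in wild-type and 97.1, 97.0 and 103 CPM in S138A libraries (log2 fold change 0.45, adjusted p = 0.187 by edgeR, 0.00938 with the block). *Klb*, the coreceptor of endocrine FGFs, stood at -0.89 (adjusted p = 0.273 by edgeR, 0.0612 with the block). In wild-type 3 and S53, 6 of the 16 were below and 5 above the other libraries (24.4% and 24.6% of all genes). Within the list of 14 cadherins, catenins and epithelial to mesenchymal factors around *Cdh2*, 12 were tested, and edgeR called 0 and the block 1 higher, *Snai1* (1.18, adjusted p = 0.268 by edgeR, 0.0153 with the block). *Zeb2*, second by p-value, stood at 0.52 (adjusted p = 0.528 by edgeR). *Cdh1*, the E-cadherin gene, had 605, 583 and 445 CPM in wild-type and 623, 620 and 584 CPM in S138A libraries.

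Markers of other cell types that the cultures could hold went both ways in wild-type 3 and S53. The summed level of 13 neural markers (12 in the table, 5 tested, *Six3* at 0 in all libraries) was 121 CPM in wild-type 3 and 104 CPM in S53, against 214 to 229 CPM in the other 4 libraries. The sum of 12 streak markers was 8.91 CPM in wild-type 3 and 11.5 CPM in S53, against 12.9 to 21.3 CPM. Primitive endoderm markers summed to 355 and 368 CPM in these libraries against 360 to 398 CPM. Trophoblast markers summed to 499 and 437 CPM against 533 to 814 CPM, a sum carried by *Krt8* and *Krt18*, while *Tfap2c* (39.4, 39.8 and 72.2 CPM in wild-type and 34.6, 33.8 and 55.9 CPM in S138A libraries) and *Esx1* were higher in both. By gene, both libraries were below the other 4 for 2 of 5 neural, 4 of 8 streak, 4 of 14 primitive endoderm, 4 of 11 trophoblast and 1 of 9 fibroblast markers (24.4% of all genes), and above for 0, 2, 2, 2 and 2 (24.6% of all genes). Summed levels of fibroblast markers were 238 and 217 CPM against 219 to 310 CPM. Between genotypes edgeR called 0 markers of any of these lists, while the block called 0 higher and 1 lower of 5 neural, 1 and 0 of 8 streak, 2 and 1 of 14 primitive endoderm, 5 and 1 of 11 trophoblast and 4 and 0 of 9 fibroblast markers (10.7% and 9.13% of all genes). The leading genes by p-value were *Pax6* (log2 fold change -1.69) and *Map2* (-0.25), *Wnt3* (0.94) and *T* (0.61), *Lama1* (-0.43) and *Col4a2* (0.68), *Krt7* (1.11) and *Cdx2* (2.33), and *Thy1* (1.02) and *Col3a1* (1.62), none with an adjusted p under 0.05 by edgeR. The part of other cell types in the members' differences was not tested.

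By the shape of their profile over the 6 libraries, the genes of at least 5 CPM most like *Otx2* were *Emc8*, *Cdk12* and *Nrp2*, with a root mean square log2 difference of 0.0712, 0.0715 and 0.0821 among 10593 genes. For *Fgf5* they were *Ddx58*, *Ccnd2* and *Kdr*, at 0.289, 0.291 and 0.308 among 10594 genes. *Ccnd2*, the gene of cyclin D2, had 39.6, 39.6 and 11.6 CPM in wild-type and 26.8, 24.2 and 5.07 CPM in S138A libraries. Among the members, *Otx2* was closest to *Fgf15* (0.136) and *Cdh2* (0.155), and *Zic5* farthest from *Lef1* (1.35).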

How the data were processed

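RNA-seq of 6 ESC libraries, 3 wild-type and 3 S138A, was analysed from a table of raw counts. The authors deposited counts per gene made with featureCounts after alignment by TopHat2 (2.0.11) to mm9 (NCBIM37) and base calling by CASAVA (1.8.4). Its version, strand setting and treatment of reads with several matches are not given in the sources used here. The library kit keeps strand. The table held 37620 genes, of which 12734 (33.8%) were at 0 in all libraries. ERCC RNA was added, but the table holds 0 spike-in rows. Symbols were matched for 32897 genes (87.4%).

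Counts were analysed in R (4.3.3) with edgeR (4.0.16): genes were kept by filterByExpr (minimum count 10, minimum total 15), scaled by TMM, and tested between genotypes with the quasi-likelihood test on all 6 libraries, with Benjamini-Hochberg adjustment over all genes tested. Log2 CPM carried a prior count of 0.25. DESeq2 (1.42.0), limma-voom (3.58.1), other factors and filters, left-out libraries, a term for wild-type 3 and S53, and the replicate number as a block were alternatives. The scripts were tested on simulated data. Comparisons of wild-type 3 and S53 with the other libraries carry no test, because measured values chose these libraries. Counts within each genotype were added after the data were seen.

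The wild-type columns match the labels by name, and the S138A columns by group. With the final digit of the column name as the replicate number, deviations from the group means correlated at 0.506, 0.468 and 0.737 for the 3 pairs. Crossing numbers 1 and 2 gave 0.476 and 0.487, so these cannot be told apart.

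The members and gene lists were chosen with earlier results of these data known. The text names all 10 members, the 2 genes of each list with the smallest p-value where fewer were called, the 3 profiles nearest to *Fgf5* and *Otx2*, *Ube2d3* and the ESC markers. *Dnmt3l*, *Etv1*, *Tdgf1*, *Nr0b1*, *Cdh1*, *Tfap2c*, *Krt8*, *Krt18*, *Esx1* and the ERK feedback inhibitors fall outside this rule and were picked after their values were seen. Transcript lengths come from GENCODE M21 on GRCm38, another build than that of the counts, and coordinates are given for printed sequences alone. Poisson intervals were computed for *Fgf5* alone, the member with the fewest counts apart from *Pou3f1*. Counting error also enters the low values of *Lef1* (73 counts in wild-type 3 and in S53), *Sox3* (83 in wild-type 3) and *Cdh2* (94 in S53).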

Additional observations from a re-analysis of the deposited data

How the results depend on the processing

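EdgeR called 0 genes between genotypes with TMM, RLE or upper-quartile factors, with a filter of 1 CPM and with limma-voom, and 4 without a filter on low counts. DESeq2 called 797, the replicate block 3180, a term for wild-type 3 and S53 4418, and the 4 libraries without wild-type 3 and S53 4756. Measured values chose the libraries behind the term and the fit of 4, and those counts do not account for that choice. Leaving out each library in turn gave 0 to 79, with 79 without S53. Members called higher numbered 0 by edgeR, 1 by DESeq2 and 2 with the replicate block, with the term and in the 4 libraries. Members called lower numbered 3 with the replicate block, with the term and in the 4 libraries. The block changed the call of *Otx2*, *Cdh2*, *Fgf15*, *Zic2* and *Sox3* and of no other member. The log2 fold change of *Foxd3* turned to 0.10 in the 4 libraries and ran from -0.36 to 0.39 as each library was left out, being 0.07 without wild-type 1, 0.19 without wild-type 2 and 0.39 without S53. That of *Lef1* ran from -0.94 to 0.010 as each library was left out, with 0.010 without S53. Apart from these 5 reversals and 16 values that passed the threshold under an alternative, the 9 members' fold changes kept their direction and call in 114 comparisons. Single libraries still moved them by over 1.5 times: *Fgf5* ran from -1.05 without S52 to -0.05 without wild-type 2, *Otx2* from -0.67 without wild-type 3 to -0.16 without S53, *Cdh2* from -0.85 without S51 to -0.27 without S53, *Fgf15* from -0.72 without S52 to -0.09 without S53 and *Zic5* from -0.22 without S53 to -0.07 without wild-type 3. As a ratio to the value from all libraries, the measure meant here, *Zic2* (0.38 to 0.52) and *Sox3* (0.58 to 1.10) moved less. In log2 units, *Sox3* moved about as far as *Otx2* and farther than *Zic5*. The differences of wild-type 3 and S53 moved by more than the replicate spread in 3 of 54 comparisons, all with upper-quartile factors. Why the calls depend on these libraries was not tested. Depth limits *Fgf5*, with 8 to 63 counts. Whether depth or the counting gave the 0 of *Pou3f1* was not tested.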

Other observations

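Of 7 inhibitors that ERK signalling induces as feedback, a subset of the FGF pathway list singled out after its values were seen, the replicate block called 3 higher and 0 lower in S138A ESCs (10.7% and 9.13% of all genes), and edgeR without the block called 0. *Spry4* had 187, 194 and 101 CPM in wild-type and 287, 290 and 140 CPM in S138A libraries (log2 fold change 0.57, adjusted p = 0.505 by edgeR, 0.00592 with the block). *Spry2* (0.40, adjusted p = 0.501 by edgeR, 0.0161 with the block) and *Dusp4* (0.34, adjusted p = 0.680 by edgeR, 0.0238 with the block) were the other two called. *Spred1* and *Spred2* had log2 fold changes of -0.21 and -0.15 and did not pass with the block (adjusted p = 0.144 and 0.160). In wild-type 3 and S53, 5 of the 7 were below the other 4 libraries and 1 was above, *Spry1*, with log2 differences of 0.38 and 0.55 (24.4% and 24.6% of all genes). The ligand *Fgf4* was also above, by 0.66 and 0.34.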
